A study of Mus musculus with 4 samples.

Results

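Glutamate is the main excitatory transmitter of the cerebral cortex, and 7 genes that carry glutamate or related amino acids across membranes were described here in single nuclei of cortex with and without the creatine transporter. The set consisted of Slc17a7, Slc17a6 and Slc17a8 of the SLC17 family and Slc1a1, Slc1a2, Slc1a3 and Slc1a4 of the SLC1 family, 7 of the 21933 genes listed for each library, found by their symbols. They were selected on gene family with earlier results of these libraries known, both their levels across cell types and their genotype contrasts, so levels are given without a test. The p-values printed for them come from fits over all genes and do not count as independent evidence about the choice. Nuclei came from the right cerebral cortex of adult male C57Bl/6J littermates (PND100), 2 Control mice (CrT+/y) and 2 CrT-KO mice (CrT-/y), with 1 mouse per library. CrT-KO mice lacked exons 5 to 7 of Slc6a8, the X-linked gene of the plasma membrane creatine transporter, in every cell of the body, so an effect within a cell type cannot be told apart from an effect of creatine loss elsewhere.

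Vesicular glutamate transporters load glutamate into synaptic vesicles, and the neurons that release glutamate are recognised by the one they express: VGLUT1 (Slc17a7) in most cortical projection neurons, VGLUT2 (Slc17a6) in thalamic and other subcortical neurons, and VGLUT3 (Slc17a8) in scattered neurons that often use another transmitter as well. The excitatory amino acid transporters clear released glutamate from the extracellular space. GLT-1 (Slc1a2) and GLAST (Slc1a3) are best known as the uptake systems of astrocytes and EAAC1 (Slc1a1) as that of neurons, whereas ASCT1 (Slc1a4) exchanges neutral amino acids such as serine rather than taking up glutamate.

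The genes lie apart in the genome. In GRCm38 coordinates, Slc17a7 spans chr7:45163949-45176142 on the plus strand, Slc17a6 chr7:51622006-51671119 (plus), Slc17a8 chr10:89574020-89621253 (minus), Slc1a1 chr19:28835049-28913960 (plus), Slc1a2 chr2:102658659-102790784 (plus), Slc1a3 chr15:8634124-8710764 (minus) and Slc1a4 chr11:20302180-20332713 (minus). Their gene bodies differed in length from 12.2 kb for Slc17a7 to 132 kb for Slc1a2. Reads anywhere in the gene body were counted, introns included, so levels are compared between genes only per kb. The 250 bases upstream of the annotated RefSeq start are shown for Slc17a7 and Slc1a3, because these genes stood at opposite ends of the distribution over cell types: 95.3% of Slc17a7 molecules came from excitatory neurons and 44.9% of Slc1a3 molecules from astrocytes. Capitals mark a GC box (GGGCGG) or a TATA box (TATAAA) on either strand.
Slc17a7, GRCm38 chr7:45163671-45163920, plus strand: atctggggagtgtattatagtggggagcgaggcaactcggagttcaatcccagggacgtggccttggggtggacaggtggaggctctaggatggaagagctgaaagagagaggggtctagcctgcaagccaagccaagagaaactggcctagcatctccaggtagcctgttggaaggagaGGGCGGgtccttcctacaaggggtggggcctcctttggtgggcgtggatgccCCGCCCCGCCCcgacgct
Slc1a3, GRCm38 chr15:8710808-8711057, minus strand: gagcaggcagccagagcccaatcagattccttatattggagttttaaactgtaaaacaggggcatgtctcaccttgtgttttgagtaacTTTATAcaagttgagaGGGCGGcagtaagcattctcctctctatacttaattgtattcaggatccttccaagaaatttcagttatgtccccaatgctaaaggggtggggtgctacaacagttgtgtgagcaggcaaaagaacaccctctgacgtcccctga
The Slc17a7 window held 3 GC boxes and no TATA box at 61.2% GC. The Slc1a3 window held 1 GC box and 1 TATA box, the latter on the opposite strand, at 44.8% GC. Over 32851 RefSeq promoter windows of the same length, 32.7% held a GC box, 12.4% a TATA box, and the median GC content was 52.4%. The matches describe the letters only.

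After removal of 1236 predicted doublets, 34458 of 35694 nuclei were kept, with median unique molecular identifiers (UMIs, each 1 counted molecule) of 5548 to 6700.5 per nucleus in the 4 libraries. Marker genes put 33784 nuclei into 7 classes and left 674 unnamed, none of the 7 transporters being used for clusters or names. Library pairs shared 12 to 19 barcodes. Although the tissue was labelled cortex, 493 to 653 nuclei per library were MSN-like, carrying markers of the medium spiny neurons of the striatum. Levels are UMIs of a gene in counts-per-million (CPM) of all UMIs of a population in a library. Slc6a8 stood at 6.93 and 6.14 CPM in the Control and 1.64 and 1.63 CPM in the CrT-KO libraries over all kept nuclei, a log2 fold change of -1.95 (SE 0.15, edgeR quasi-likelihood test, adjusted p = 0.0117), so the genotype labels matched the deleted gene.

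Slc17a7 was the vesicular transporter of the excitatory neurons. It reached 116 and 129 CPM in excitatory neurons of Control 1 and 2 and 120 and 128 CPM in CrT-KO 1 and 2, which overlapped. The excitatory libraries lay above those of every other class: the next, endothelial cells and pericytes, ranged from 30.1 to 92.9 CPM on 6 to 16 UMIs per library, and inhibitory neurons were lowest at 6.68 to 9.99 CPM. Microglia (28.0 to 51.1 CPM) stood apart from oligodendrocytes (20.1 to 27.5 CPM), which overlapped with astrocytes at 15.0 to 24.2 CPM. With each nucleus thinned to 800 UMIs, a Slc17a7 UMI was found in 9.33% ± 0.53 of excitatory nuclei and 0.59% ± 0.22 of inhibitory nuclei (mean ± SD, n = 4 libraries). Without thinning these shares were 61.8% and 4.70%, at median depths of 7317.5 to 8843 UMIs for excitatory and 5183.5 to 5992.5 UMIs for inhibitory nuclei.

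Among excitatory subclasses Slc17a7 was lowest in layer 5/6 NP-like nuclei. Their libraries (78.8 to 109.35 CPM) overlapped with layer 4/5 Rorb-like nuclei (109.25 to 119.6 CPM) and lay below those of every other subclass listed here. Its mean over the 4 libraries was 140 CPM in claustrum or layer 6 Car3-like, 131 in layer 6 CT-like, 129 in layer 6b-like, 123 in layer 2/3-like, 115 in layer 4/5 Rorb-like and 92.1 CPM in layer 5/6 NP-like nuclei, each overlapping with the next in this order. The lowest excitatory library (78.8 CPM, NP-like) was above the highest interneuron library (21.6 CPM, LAMP5-like). The layer names follow marker genes: Rorb marks layers 4 and 5, NP the near-projecting, CT the corticothalamic neurons.

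Slc17a6 was below Slc17a7 over excitatory neurons as a class and was concentrated in a few populations. In excitatory neurons it stood at 11.6 and 12.2 CPM in the Control and 11.6 and 10.9 CPM in the CrT-KO libraries. The other classes rested on 0 to 28 UMIs per library, and endothelial cells and pericytes, next in order at 0 to 13.3 CPM, overlapped with excitatory neurons. Excitatory neurons gave 74.2% of all Slc17a6 UMIs and the unnamed nuclei 20.9%, though unnamed nuclei held 1.86% of the UMIs of all genes. Claustrum or layer 6 Car3-like (21.2 to 42.8 CPM) and NP-like nuclei (22.7 to 34.3 CPM) overlapped, and both were apart from Rorb-like nuclei at 14.2 to 17.8 CPM. Layer 2/3-like nuclei followed at 5.56 to 7.72 CPM, below every Rorb-like library, whereas CT-like nuclei held only 0.709 to 3.04 CPM. After thinning, 179 excitatory nuclei held a Slc17a6 UMI. Of these, 6.1% also held a Slc17a7 UMI, against 9.3% of the other excitatory nuclei, a difference that was not tested. In excitatory sub-clusters 7, 23 and 24 together, 6.06% of thinned nuclei held Slc17a6. Slc17a7 was found in 5.17% of these and in 5.01% of the others.

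At the finest clustering, with 55 populations of at least 50 nuclei, Slc17a6 was highest on average in a pair of clusters that had been grouped with inhibitory neurons. Inhibitory sub-cluster 7 (77 nuclei, unnamed, led by Tcf7l2) stood at 124 and 145 CPM in the Control and 110 and 146 CPM in the CrT-KO libraries, on 18, 24, 17 and 6 UMIs. Gad1 and Gad2, the genes of GABA synthesis, were seen in 2.6% and 9.09% of its nuclei, and its Slc17a7 count was 1 or 2 UMIs per library. Inhibitory sub-cluster 16 (363 nuclei) was also left unnamed, with Gad1 and Gad2 each seen in under 15% of its nuclei. Its Slc17a6 stood at 122 and 122 CPM against 107 and 96.4 CPM, and its Slc17a7 at 32.4 and 34.8 against 26.6 and 26.5 CPM. Excitatory sub-cluster 23 (540 nuclei) followed with 96.8 and 101 against 97.2 and 109 CPM. Every one of these libraries lay far above the class level of excitatory neurons.

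Slc17a8 was rare, and most of its 301 UMIs came from 3 small populations. NP-like nuclei held 42.9% of them. The Control libraries gave 25 and 31 UMIs there and the CrT-KO libraries 46 and 27 (33.4 and 42.8 against 56.4 and 34.3 CPM), and all other subclasses stayed at or under 2.22 CPM in every library. A Slc17a8 UMI was found in 3.96% ± 2.14 of NP-like nuclei thinned to 800 UMIs and in 17.2% without thinning (n = 4 libraries). No Slc17a8 UMI was seen in astrocytes, which allows up to 2.47 CPM over the 4 libraries (3 UMIs, counting error only), nor in MSN-like nuclei, which allows up to 0.219 CPM. Inhibitory neurons as a class stood above excitatory neurons (1.35 to 3.65 against 0.924 to 1.36 CPM), with overlap, and most of their UMIs came from a pair of sub-clusters, named after their values were seen.
Inhibitory sub-cluster 24, only 37 nuclei, gave 26.9% of all Slc17a8 UMIs. It held 15 and 26 UMIs in the Control and 31 and 9 in the CrT-KO libraries (145 and 248 against 219 and 118 CPM), and 25 of its nuclei had a UMI. The genotypes overlapped there. Its leading genes included Chat, the gene of acetylcholine synthesis, and Slc5a7, the choline transporter gene. Gad2 was seen in 78.4% of its nuclei, but Gad1 in 29.7% and Slc32a1, the vesicular GABA transporter gene, in only 5.4%. The cluster stayed unnamed and was below the 50 nuclei required of a finest population. Inhibitory sub-cluster 4 (207 nuclei, led by Adarb2 and Cadps2, with the cannabinoid receptor gene Cnr1) held 16 and 2 Slc17a8 UMIs in the Control and 16 and 0 in the CrT-KO libraries. That level differed more between libraries of 1 genotype than between genotypes.

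**Figure D1:**
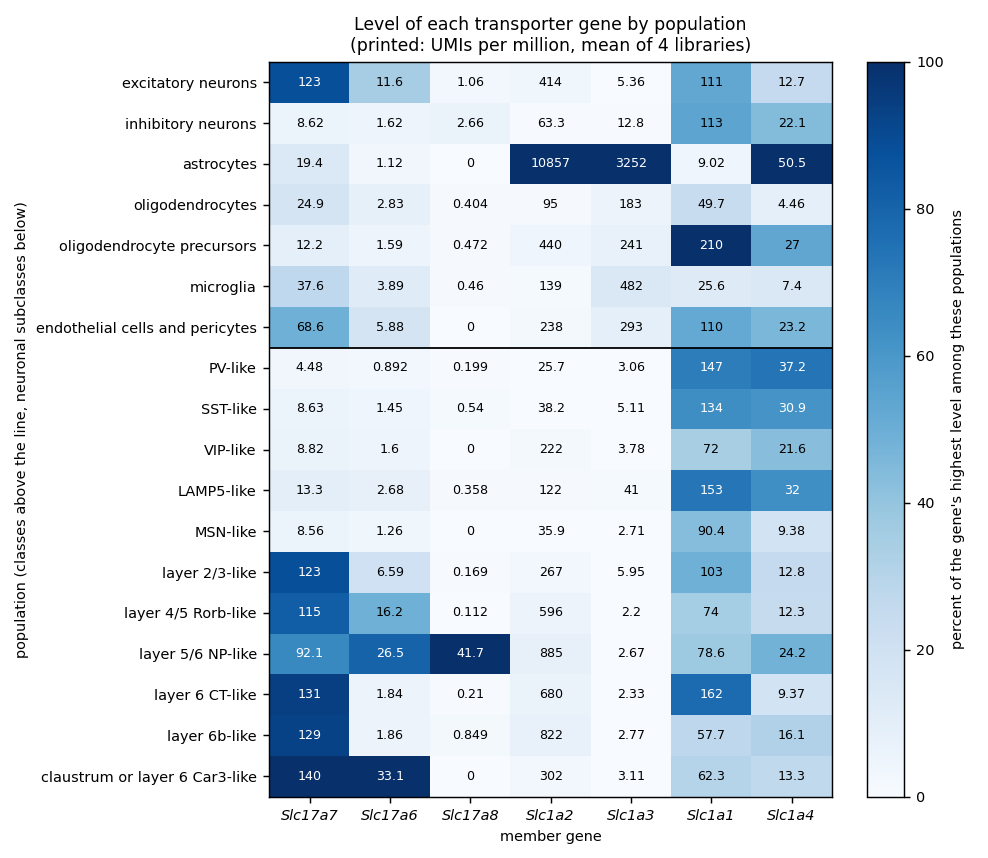
Mean level over the 4 libraries of each of the 7 transporters (columns) in the 7 classes and 11 neuronal subclasses (rows), printed in CPM, with colour giving the percent of that gene's highest level. Slc17a7 is dark in excitatory rows, Slc1a2 and Slc1a3 in astrocytes (10857 and 3252), Slc1a1 in oligodendrocyte precursors (210) and Slc17a8 in NP-like nuclei (41.7).

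Slc1a2 was the most abundant transporter in astrocytes, at 11240 and 10904 CPM in the Control and 10497 and 10786 CPM in the CrT-KO libraries. Nearly every astrocyte nucleus thinned to 800 UMIs held a UMI of it (98.8% ± 1.0, n = 4 libraries; 99.8% without thinning). Astrocytes were few, 56 to 172 nuclei per library, and gave 16.1% of all Slc1a2 UMIs, while excitatory neurons gave 76.9%. The class level of excitatory neurons was 455 and 401 CPM in the Control and 408 and 390 CPM in the CrT-KO libraries, which overlapped with oligodendrocyte precursors at 394 to 469 CPM. Endothelial cells and pericytes (155 to 358 CPM), microglia (121 to 147), oligodendrocytes (81.7 to 107) and inhibitory neurons (62.7 to 64.7 CPM) followed, each apart from the next.

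Within neurons Slc1a2 was graded by subclass. NP-like nuclei were highest at 917, 926, 871 and 826 CPM in Control 1, Control 2, CrT-KO 1 and CrT-KO 2. Layer 6b-like (mean 822), CT-like (680) and Rorb-like nuclei (596 CPM) came next, each overlapping with its neighbour, and all lay apart from Car3-like (302) and layer 2/3-like nuclei (267 CPM). Among interneurons VIP-like nuclei (222) overlapped with layer 2/3-like nuclei and stood above LAMP5-like (122), SST-like (38.2) and PV-like nuclei (25.7 CPM), and MSN-like nuclei stood at 35.9 CPM. After thinning to 800 UMIs, 48.8% of NP-like and 2.28% of PV-like nuclei held a Slc1a2 UMI, and without thinning 96.5% and 14.8%, at median depths of 5060.5 to 6151 and 6217 to 7258 UMIs. Excitatory sub-cluster 21 (357 nuclei) was the highest neuronal population of the finest clustering at 1099 and 1436 against 1036 and 974 CPM.

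Beside astrocyte genes, neuronal Slc1a2 varied with the subclass. Per UMI of the 17 astrocyte markers, there were 1.74 Slc1a2 UMIs in astrocytes, 6.41 in NP-like, 3.94 in CT-like, 3.13 in layer 6b-like and 2.87 in Rorb-like nuclei, but 1.60 in Car3-like, 0.987 in layer 2/3-like and 0.119 in inhibitory neurons. Excitatory neurons as a whole, at 1.61, were close to astrocytes. The markers were not confined to astrocytes: inhibitory neurons held 25413 of their UMIs, 15250 of these in MSN-like nuclei, against 7554 in astrocytes. These ratios therefore vary with the marker sum of each population as well as with Slc1a2. The ratio of Slc1a2 to Slc1a3 UMIs was 3.33 in astrocytes (2.98 to 3.62 over libraries), 340 in NP-like, 270 in Rorb-like and 291 in CT-like nuclei. The ratio was 77.4 in all excitatory neurons, 44.8 in layer 2/3-like nuclei and 4.93 in inhibitory neurons.

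Slc1a3 followed astrocytes and other glia. It stood at 3140 and 3008 CPM in astrocytes of the Control and 3526 and 3332 CPM in those of the CrT-KO libraries. Microglia came next at 392 to 526 CPM, overlapping with endothelial cells and pericytes (199 to 422), which overlapped with oligodendrocyte precursors (206 to 294), which overlapped with oligodendrocytes (150 to 216 CPM). Inhibitory neurons (11.3 to 14.7 CPM) and excitatory neurons (3.78 to 6.54 CPM) were far below and apart from each other. Among named neuronal subclasses only LAMP5-like nuclei stood out, at 54.4 and 35.1 CPM in the Control and 40.1 and 34.3 CPM in the CrT-KO libraries. The means of the other subclasses ran from 2.20 to 5.95 CPM. LAMP5-like nuclei gave only 95 of the 611 Slc1a3 UMIs of inhibitory neurons. PV-like nuclei gave 28, SST-like 39, VIP-like 10 and MSN-like 37, so most came from inhibitory nuclei without a subclass name. At 800 UMIs per nucleus, 89.3% of astrocytes, 29.7% of microglia, 13.2% of oligodendrocytes and 0.42% of excitatory nuclei held a Slc1a3 UMI. Without thinning the shares were 96.6%, 33.5%, 19.9% and 2.98%, with 543 microglia and 306 oligodendrocytes left out by thinning for lack of depth.

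Slc1a1 was spread over all neurons and peaked in oligodendrocyte precursors, the proliferating cells that give rise to myelinating glia. Precursors stood at 195 and 221 CPM in the Control and 210 and 213 CPM in the CrT-KO libraries, apart from every other class. Inhibitory neurons (109 to 115 CPM), excitatory neurons (106 to 115) and endothelial cells and pericytes (87.3 to 173 CPM) overlapped. Oligodendrocytes (41.0 to 56.8), microglia (18.6 to 38.8) and astrocytes (0 to 12.8 CPM) were each lower than the last. CT-like (mean 162), LAMP5-like (153), PV-like (147) and SST-like nuclei (134 CPM) overlapped in turn and stood apart from layer 2/3-like nuclei at 103 CPM, below which each subclass overlapped with its neighbour down to layer 6b-like nuclei at 57.7 CPM. Slc1a1 overlaps 4430402I18Rik on the opposite strand. The use of strand in counting is not stated in the sources used here, so whether reads of the pair were kept apart is not known.

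Slc1a4 was sparse everywhere. Its mean was 50.5 CPM in astrocytes, on 8 to 21 UMIs per library, and the astrocyte libraries (24.05 to 72.5 CPM) overlapped with oligodendrocyte precursors (18.9 to 34.2 CPM). Inhibitory neurons (20.5 to 25.7 CPM) stood above excitatory neurons (11.6 to 13.7 CPM), and excitatory neurons above microglia (4.31 to 11.5 CPM). PV-like nuclei led the subclasses at 37.2 and 35.2 CPM in the Control and 36.6 and 39.8 CPM in the CrT-KO libraries, overlapping with LAMP5-like nuclei at 26.0 to 35.8 CPM. CT-like nuclei were lowest with a mean of 9.37 CPM.

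Per kb of gene body, Slc17a7 led in excitatory neurons with 10.1 CPM per kb. Slc1a2 followed there with 3.13, Slc1a1 with 1.40, Slc1a4 with 0.417, Slc17a6 with 0.236, Slc1a3 with 0.070 and Slc17a8 with 0.022 CPM per kb. In astrocytes the levels were 82.2 CPM per kb for Slc1a2, 42.4 for Slc1a3 and 1.65 for Slc1a4. In NP-like nuclei Slc1a2 reached 6.70 CPM per kb.

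**Figure D2:**
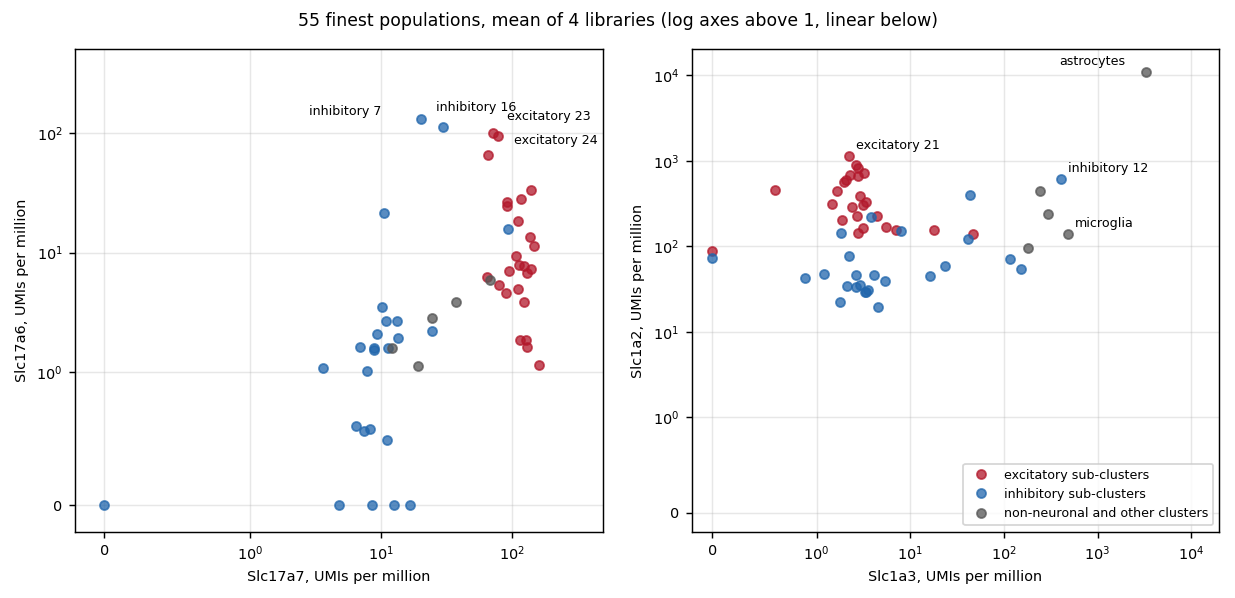
The 55 finest populations as points, with Slc17a6 against Slc17a7 (left) and Slc1a2 against Slc1a3 (right), in CPM averaged over 4 libraries, log axes above 1 and linear below. Excitatory sub-clusters form a column of like Slc17a7 and widely different Slc17a6, and of low Slc1a3 and high Slc1a2, while astrocytes are high in both uptake genes.

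The genes most like each transporter in pattern were found by Pearson's correlation of log2(CPM + 1) over these 55 populations among 12385 genes that reached 10 CPM in any of them, as a description. The populations share libraries and depth, and no p-value is attached. Slc17a7 was closest to Sv2b (r = 0.914), a synaptic vesicle protein gene that is also an excitatory marker, then to the transcription factor gene Neurod2 (0.896) and to Nrn1 (0.883). Slc1a3 was closest to Pdlim5 (0.834), Cd9 (0.811) and Elf1 (0.807). Slc1a2 was closest to Pamr1 (0.799) and Dkk3 (0.78). Slc1a1 was closest to its overlapping neighbour 4430402I18Rik (0.827), followed by the AMPA receptor gene Gria3 (0.738) and Cyfip2 (0.71). Slc1a4 was nearest to Acadsb (0.746) and Slc17a6 to Nrn1 (0.705), while for Slc17a8 the highest value was 0.559 with Lrrc63.

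To ask whether loss of the creatine transporter moved these genes, the UMIs of each population were added up within a library and compared by edgeR's quasi-likelihood test over all genes, at an adjusted p (Benjamini-Hochberg over all genes of that population) under 0.1. No transporter was called in any of 19 populations: of 133 gene and population pairs, 93 passed the filter on low counts, 0 were called and 5 had an unadjusted p under 0.05. With DESeq2 the count was also 0, with the replicate block it was 2 (Slc1a3 in excitatory neurons and in oligodendrocytes), and without CrT-KO replicate 1 it was 1 (Slc1a3 in excitatory neurons). Over all genes 6.7% of pairs had an unadjusted p under 0.05 in the main fit. The replicate block also called more genes over all, for example 2205 pairs over 49 finest populations against 449 without it. Of the 93 log2 fold changes (CrT-KO over Control) 50 were above and 43 below 0. Their median was 0.022, with a range from -0.93 to 0.89. The 19 populations are nested: all kept nuclei hold the classes, and the neuronal classes hold the subclasses. The same UMIs therefore enter these counts more than once.

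The call rate for all genes was low too, and the 0 transporters called are to be read against it. It was 0.02% of 15018 genes over all kept nuclei, 0.193% of 13955 in excitatory and 0.0627% of 12764 in inhibitory neurons. In glia and vessels 0.0199% were called in astrocytes, 0.175% in oligodendrocytes, 0.0% in oligodendrocyte precursors, 0.0413% in microglia and 0.0% in endothelial cells and pericytes. Among interneurons and striatal-type neurons it was 0.0429% in PV-like, 0.0663% in SST-like, 0.144% in VIP-like, 0.0162% in LAMP5-like and 0.1% in MSN-like nuclei. The highest rates were 1.19% in layer 2/3-like and 1.05% in Rorb-like nuclei, and 0.394% in CT-like nuclei, while it was 0.0861% in Car3-like, 0.0596% in NP-like and 0.0295% in layer 6b-like nuclei. At these rates a count of 0 among 7 genes is not a result about the transporters.

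**Figure D3:**
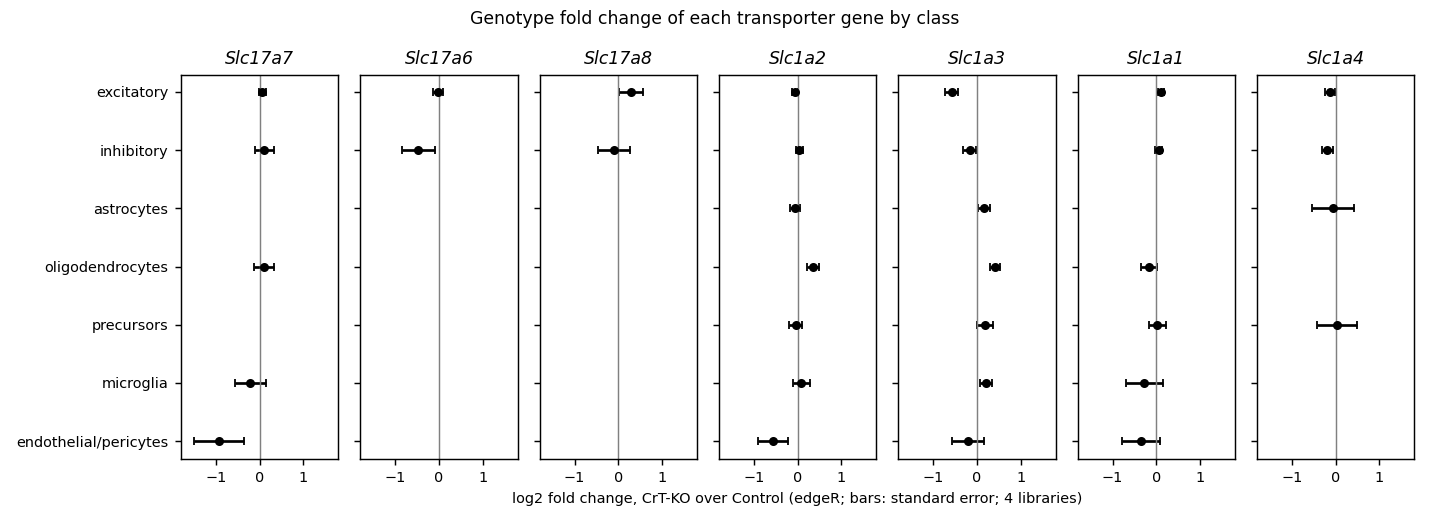
Log2 fold change (CrT-KO over Control, edgeR) of each transporter in each class where it passed the filter on low counts, with bars of 1 SE from 4 libraries. Slc1a3 stands at -0.58 in excitatory neurons and 0.42 in oligodendrocytes, and no value passed an adjusted p of 0.1.

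In their main cell types none of the transporters passed the test. On the log2 scale Slc17a7 in excitatory neurons differed by 0.06 (SE 0.08, adjusted p = 0.874 in edgeR) and Slc17a6 by -0.03 (SE 0.11, adjusted p = 0.970). Slc17a8 in NP-like nuclei gave 0.26 (SE 0.28, adjusted p = 0.998). Slc1a2 gave -0.06 in astrocytes (SE 0.11, adjusted p = 0.999) and -0.05 in excitatory neurons (SE 0.07, adjusted p = 0.869). Slc1a3 in astrocytes gave 0.16 (SE 0.14, adjusted p = 0.999), and the value was -0.12 with doublets kept. Slc1a1 gave 0.11 in excitatory neurons (SE 0.07, adjusted p = 0.681) and Slc1a4 -0.19 in inhibitory neurons (SE 0.13, adjusted p = 0.976).

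**Figure D4:**
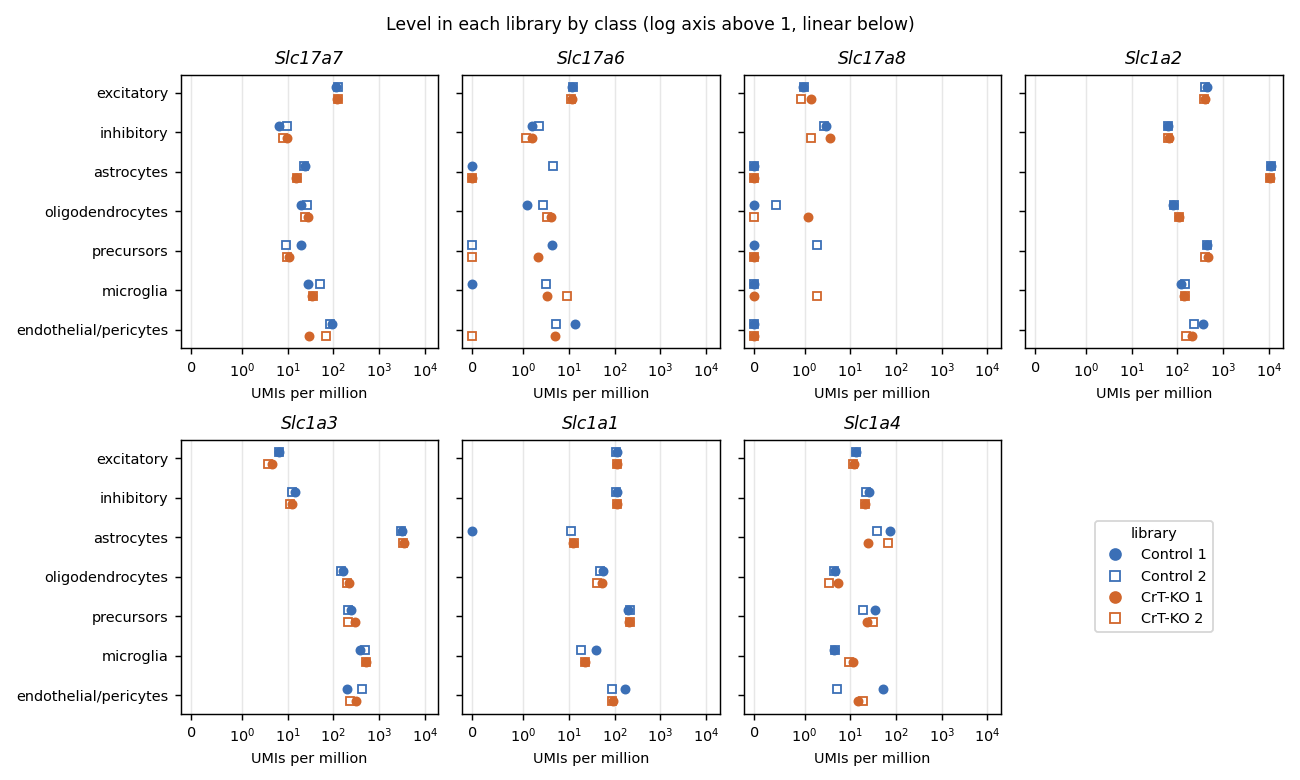
Level of each transporter in the 7 classes in CPM (log axis above 1, linear below), with 1 symbol per library, Control in blue and CrT-KO in orange. For Slc17a7, Slc1a2 and Slc1a3 the highest class lies apart from all others in both genotypes, for example Slc1a3 at 3008 to 3526 in astrocytes and 3.78 to 6.54 in excitatory neurons.

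The 5 pairs with the smallest p-values were Slc1a3 in excitatory neurons and oligodendrocytes, Slc1a2 in oligodendrocytes, Slc1a4 in MSN-like nuclei and Slc1a1 in layer 2/3-like nuclei. In oligodendrocytes Slc1a3 stood at 162 and 150 CPM in the Control and 216 and 203 CPM in the CrT-KO libraries, or 0.42 on the log2 scale (SE 0.12, adjusted p = 0.285 in edgeR). Slc1a2 there stood at 81.7 and 84.8 against 107 and 107 CPM (0.34, SE 0.13, edgeR adjusted p = 0.617). The summed level of the 17 astrocyte markers in oligodendrocytes lay in the same order, 74.0 and 92.4 against 118 and 108 CPM with 1 of 17 at 0, and its part in these values was not tested. Slc1a4 in MSN-like nuclei stood at 12.8 and 10.3 against 6.24 and 8.11 CPM (-0.69, SE 0.29, edgeR adjusted p = 0.690). Slc1a1 in layer 2/3-like nuclei stood at 100 and 92.9 against 109 and 108 CPM (0.22, SE 0.09, edgeR adjusted p = 0.425).

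Slc1a3 in excitatory neurons showed the smallest p-value of the set, and its difference lay in a single sub-cluster. It stood at 6.54 and 6.48 CPM in the Control and 4.64 and 3.78 CPM in the CrT-KO libraries, on 231, 238, 201 and 131 UMIs (log2 fold change -0.58, SE 0.15, edgeR adjusted p = 0.267). Of these UMIs, excitatory sub-cluster 3 gave 47.2% and 52.5% in the Control but 25.9% and 11.5% in the CrT-KO libraries, though it held 171, 196, 166 and 137 nuclei, 3.13 to 4.77% of excitatory nuclei. Without this sub-cluster, a setting added after seeing the data, Slc1a3 in the other excitatory nuclei stood at 3.604 and 3.23 against 3.59 and 3.46 CPM (0.09, SE 0.16, edgeR adjusted p = 0.916).

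To place the sub-cluster beside its peers without singling it out, all 49 finest populations with at least 20 nuclei in every library were then tested, with p adjusted over all 310563 gene and population pairs. This test was also added after seeing the data. It called 449 pairs (0.145%), and 1 of 175 transporter pairs, Slc1a3 in excitatory sub-cluster 3, where the level was 74.4 and 71.8 CPM in the Control and 29.0 and 13.2 CPM in the CrT-KO libraries. The counts behind it were 109, 125, 52 and 15 UMIs, and the genotypes did not overlap. On the log2 scale the change was -1.66 (SE 0.24, adjusted p = 0.002994 in edgeR), and DESeq2 gave -1.70 (adjusted p = 0.01634). Leaving out each library in turn gave -2.41 to -1.29.

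Both the number of sub-cluster 3 nuclei with Slc1a3 and the molecules in each of them were lower in CrT-KO. A Slc1a3 UMI was found in 23.4% and 24.5% of its nuclei in the Control and 15.1% and 8.03% in the CrT-KO libraries, with 2.73 and 2.60 against 2.08 and 1.36 UMIs per such nucleus. Nuclei with at least 5 Slc1a3 UMIs numbered 5 and 10 in the Control and 1 and 0 in the CrT-KO libraries. Median depth was 8103 and 8134 against 10355 and 7574 UMIs, so the library with the deepest nuclei was a CrT-KO library. For comparison, 2.17 to 3.33% of all excitatory nuclei held a Slc1a3 UMI, at median depths of 7317.5 to 8843 UMIs. In a sum over nuclei, fewer nuclei of a type and less RNA per nucleus cannot be told apart.

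Sub-cluster 3 (670 nuclei) carries no cell type name. It was led by Nkain3, Adamtsl1, Trpm3, Dach1, Dpyd and Ptprz1, and held the excitatory marker Sv2b in 90.6% of nuclei and Neurod2 in 13.9%, with Gad1 in 2.39% and Gad2 in 3.73%. Slc17a7 there stood at 122 and 130 against 138 and 161 CPM. Its astrocyte marker sum was 200 and 196 in the Control and 190 and 160 CPM in the CrT-KO libraries, with 2 of 17 markers at 0. The inhibitory marker sum was 605 and 501 against 473 and 395 CPM, with 2 of 16 at 0. Both sums were lower in CrT-KO. Adarb2, 1 of the inhibitory markers and itself called lower there, gave 227 and 183 against 79.1 and 88.7 CPM of the inhibitory sum. The oligodendrocyte precursor sum was larger, at 2521 and 2591 against 2488 and 3060 CPM, with 4 of 14 at 0. The oligodendrocyte sum was 182 and 175 against 177 and 218 CPM, and the microglia sum 77.8 and 64.3 against 64.1 and 58.9 CPM. The excitatory sum was 5305 and 5245 against 5417 and 5316 CPM, with 1 of 16 at 0. The part of these sums in the result was not tested. None of the other transporters was called there, with log2 fold changes of 0.27 for Slc17a7, 0.18 for Slc1a1, 0.18 for Slc1a4, 0.16 for Slc1a2 and -0.41 for Slc17a6.

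**Figure D5:**
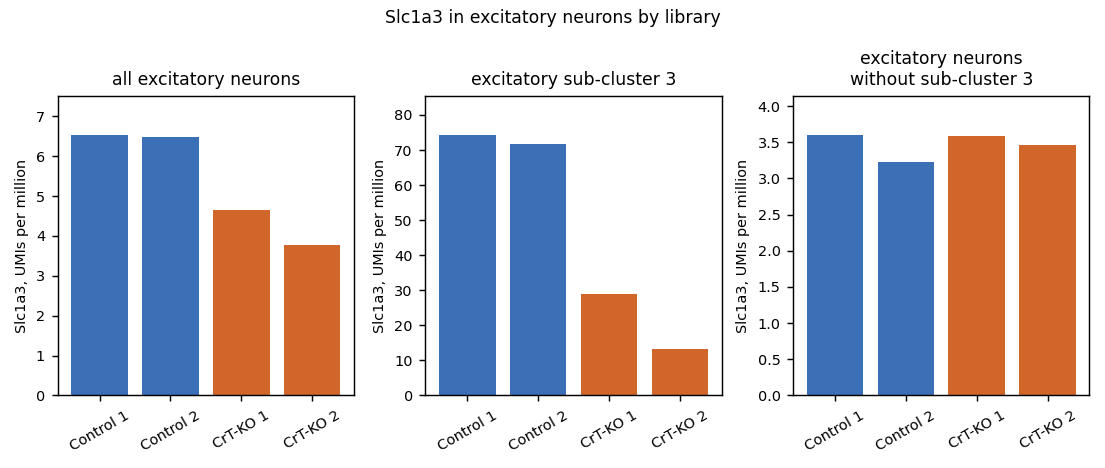
Slc1a3 level in CPM, 1 bar per library from 0, in all excitatory neurons, in excitatory sub-cluster 3 and in excitatory neurons without it. The Control bars stand at 74.4 and 71.8 and the CrT-KO bars at 29.0 and 13.2 in sub-cluster 3, and all 4 bars lie between 3.23 and 3.604 without it.

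Slc1a3 was 1 of 18 genes called in sub-cluster 3. Lower in CrT-KO, with log2 fold changes, were Adarb2 (-1.25), which encodes an RNA-binding protein of the adenosine deaminase family, the cadherin gene Cdh13 (-0.52), the sulfotransferase gene Chst9 (-0.79), the sulfatase gene Sulf1 (-1.85), the NMDA receptor subunit gene Grin3a (-0.79), the receptor tyrosine kinase gene Met (-1.48) and Nfia (-0.64), a transcription factor gene of glial and neuronal development. Vgll3, Thsd7b, Sncaip, E130114P18Rik and Ankrd55 were also lower. Higher in CrT-KO were the contactin-associated protein genes Cntnap5c (1.01) and Cntnap4 (0.98), Dpp10 (0.60), the potassium channel gene Kcnq3 (0.48) and the opioid receptor gene Oprd1 (1.18). In Control nuclei of the sub-cluster, those with a Slc1a3 UMI held Chst9 at 446 CPM against 238 CPM in those without, Nfia at 305 against 177, Vgll3 at 92.5 against 26.2, and Cdh13 at 1730 against 1132 CPM. They held Dpp10 at 2169 against 5003 CPM and Kcnq3 at 746 against 1209 CPM. Of the 12 other genes lower in CrT-KO, 10 were higher in nuclei with Slc1a3, some by little (Met 32.0 against 28.8 CPM), and Adarb2 (128 against 228 CPM) and E130114P18Rik (18.5 against 30.6 CPM) were lower. The 5 genes higher in CrT-KO were all lower in nuclei with Slc1a3. These values are means of the 2 Control libraries and a description. The genes were picked by the genotype contrast in the same nuclei, and no share over all genes was taken. Cntnap4 was higher in nuclei with Slc1a3 in Control 1 (44.3 against 30.2 CPM). In the 2 CrT-KO libraries Cdh13 was again higher in nuclei with Slc1a3, and Dpp10 lower. There Cntnap5c was higher (521 against 473 and 504 against 418 CPM), the reverse of Control. Only 25 and 11 nuclei held a Slc1a3 UMI in these libraries. Sulf1 stood at 6.4 against 9.5 and 0 against 8.5 CPM there, on too few molecules to give a direction.

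Whether a genotype difference varied between cell classes was tested directly. In the fit of excitatory against inhibitory neurons 0 of 7 transporters differed, with 18 of 14136 genes called (0.127%) and 1 transporter at an unadjusted p under 0.05: Slc1a3 at -0.40 (edgeR adjusted p = 0.621). Over all 21 pairs of the 7 classes, added after seeing the data and adjusted within each pair, 180 of 223605 tests were called (0.0805%), and 2 of 124 transporter tests, both Slc1a3. Its log2 fold change in excitatory neurons was lower than in oligodendrocytes by 1.007 (difference -1.01, SE 0.16, edgeR adjusted p = 6.935e-05) and lower than in microglia (difference -0.83, SE 0.17, edgeR adjusted p = 0.005101). Adjusted over all 223605 tests together, the edgeR p-values were 0.0004189 and 0.005666, and 134 tests were called. Without excitatory sub-cluster 3 the differences were -0.33 and -0.17, with adjusted p of 0.818 and 0.986.

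The shares of nuclei with a transporter UMI, thinned to 800 UMIs, did not overlap between genotypes for 12 of 49 pairs of gene and class, 7 higher and 5 lower in CrT-KO. Over all genes 29.6% of the pairs with a UMI did not overlap, against 12 of the 45 transporter pairs with a UMI, and another draw of the thinning gave 17, so the count is not a result about the transporters. Slc1a3 was among them in oligodendrocytes (12.5% and 11.4% against 15.8% and 13.1%), astrocytes (87.5% and 85.2% against 91.2% and 93.1%) and excitatory neurons (0.52% and 0.51% against 0.28% and 0.37%). Slc1a2 in oligodendrocytes was at 6.09% and 6.61% against 8.85% and 7.77%. With 2 libraries against 2, the two-sided exact permutation test gave p = 0.33 for each, the smallest it can give, so none passes a threshold.

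The 27 other genes of glutamate transport and metabolism gave a like picture over the same nested populations. Among them were Slc1a5, Slc1a6, Slc1a7, Slc17a5 and Slc17a9, of the same families as the transporters described here. Of 513 gene and population pairs 314 were tested, 0 were called by edgeR and 9 had an unadjusted p under 0.05, with 167 above and 147 below 0 and a median log2 fold change of 0.013. In excitatory neurons 24 were tested, 14 above and 10 below 0. The smallest p-value there belonged to Slc7a11, the cystine-glutamate exchanger gene, at 2.41 and 2.37 CPM in the Control and 1.92 and 1.85 CPM in the CrT-KO libraries (log2 fold change -0.29, SE 0.19, edgeR adjusted p = 0.715). Pycr1 and Aldh18a1, genes of proline synthesis from glutamate, stood at 0.623 and 0.545 against 0.669 and 0.809 CPM and at 12.9 and 12.3 against 11.7 and 10.9 CPM. Glud1, glutamate dehydrogenase, stood at 30.2 and 31.8 against 32.2 and 32.0 CPM (log2 fold change 0.10, SE 0.09).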

How the data were processed

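Nuclei were profiled with 10x 3' v2 chemistry, 1 mouse per library. The deposited values are raw UMI counts per gene and nucleus, which the authors made with Cell Ranger 3.1.0 from reads aligned to GRCm38 (mm10) with a pre-mRNA reference whose whole gene body was exon (Ensembl annotation). Whether counting used strand is not given in the sources used here. Intron counts favour long genes. The authors tested single nuclei, but nuclei of 1 mouse are not replicates, so counts were summed per library here.

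Doublets were removed in scanpy 1.11.5, and nuclei were clustered on 3000 variable genes, 30 components and 20 neighbours (Leiden resolution 1, leidenalg 0.10.2), all without the 7 transporters. Clusters were named from fixed markers. 4 naming rules were tried, judged on markers and class sizes only. No annotation of the nuclei was used. Library totals were 51507483 to 65240843 UMIs. Tests used edgeR 4.0.16 (quasi-likelihood, TMM factors, filterByExpr, Benjamini-Hochberg over all genes, adjusted p under 0.1) with 2 against 2 libraries. DESeq2 1.42.0, other scalings, no filter, the replicate block, leaving out each library, doublets kept, Leiden resolution 0.5 and a minimum of 1000 UMIs were the alternatives. The fit was tested on simulated data. Levels between genes are per kb of GENCODE vM21 gene bodies, and 21816 of 21933 features were found there. Upstream sequences and their build (GRCm38.p6) come from RefSeq, and all 7 genes matched by symbol.

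Named genes were the 7 transporters, Slc6a8 as check, and the genes most like each transporter (up to 3 named). Of the 27 other genes of glutamate transport and metabolism, the 4 with the smallest p in excitatory neurons were named. Some items are not reported here. Genes called in sub-cluster 3 were named after their values were seen. The members, lists and markers were chosen with earlier results of these data known. Intervals and floors cover counting error only.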

Additional observations from a re-analysis of the deposited data

Results flagged for a closer look

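The genotype log2 fold change of Slc1a3 differed between excitatory neurons and oligodendrocytes by -1.007 (SE 0.155, edgeR interaction, adjusted p = 6.935e-05 over the genes of that pair and 0.0004189 over all 21 class pairs). The 2 Control and 2 CrT-KO libraries did not overlap in either class: 6.54 and 6.48 against 4.64 and 3.78 CPM in excitatory neurons, and 162 and 150 against 216 and 203 CPM in oligodendrocytes. The difference between excitatory neurons and microglia was -0.8313 (SE 0.17, adjusted p = 0.005101 and 0.005666), with microglia at 392 and 499 against 512 and 526 CPM. Both are listed because 2 classes moved apart by a test of the difference itself. Without excitatory sub-cluster 3 they were -0.3337 and -0.1662, and neither was called. The pairs share the excitatory sums, so they are not independent of each other. No outlier test was possible with 2 libraries per genotype.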

How the results depend on the processing

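The count of transporters called over 19 populations stayed at 0 with DESeq2, no TMM factor, RLE factors, no filter, doublets kept, transporters kept in clustering, Leiden resolution 0.5, nuclei of at least 1000 UMIs and a threshold of 0.05. With the replicate block it was 2: Slc1a3 in excitatory neurons (-0.58, edgeR adjusted p = 0.0395) and in oligodendrocytes (0.41, adjusted p = 0.0751). Only 2 pairs of numbers exist (correlation of same-numbered deviations 0.185 over all kept nuclei), so the libraries share a number and are not taken as paired. Leaving out each library gave 0 to 1, the 1 being Slc1a3 in excitatory neurons without CrT-KO replicate 1 (-0.72, adjusted p = 0.0538). The 12 shares of nuclei without overlap became 23 to 30, as fewer libraries overlap less. The 1 call over finest populations became 1 to 2, the added one being Slc1a2 in excitatory sub-cluster 21 without Control replicate 1 (-0.55, adjusted p = 0.0093). Slc1a3 in excitatory sub-cluster 3 ran from -2.41 to -1.29 with a library left out, and was called at -1.70 with the replicate block. Over all genes the block called 2205 of 310563 pairs of the finest populations, against 449 in the main fit. With a library left out, more pairs were also called over all genes. Calls gained in these settings are to be read against that.

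Of 181 alternative values of 15 fold changes, 169 kept direction and call, 3 gained a call and 9 changed sign, none of the 9 called. Leaving out each library gave -0.033 to 0.16 for Slc17a7 in excitatory neurons (below 0 without Control replicate 1 and, at -0.0021, without CrT-KO replicate 2), -0.081 to 0.033 for Slc17a6 there (above 0 without Control replicate 2) and -0.12 to 0.016 for Slc1a2 there (above 0 without Control replicate 1). It gave -0.12 to 0.56 for Slc17a8 in NP-like nuclei and -0.10 to 0.0012 for Slc1a2 in astrocytes, both changing sign without CrT-KO replicate 1. Slc1a3 in astrocytes became -0.12 with doublets kept, the cause of which was not tested. Slc1a3 in excitatory neurons became 0.087 at Leiden resolution 0.5, where 604 of the 670 nuclei of sub-cluster 3 were unnamed, and 0.093 without that sub-cluster. The differences of Slc1a3 between classes fell short of a call without sub-cluster 3, at -0.33 (oligodendrocytes) and -0.17 (microglia). The highest class of each of the 7 transporters was the same in all 4 alternatives for levels, but the whole order of classes was kept for only 4 of 7 with doublets kept, 6 with transporters kept in clustering, 7 per kb and 3 with nuclei of at least 1000 UMIs. Slc17a8 and Slc1a4 in glia rest on few UMIs, so differences there were not detectable at this depth.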
